A study of Homo sapiens with 8 samples.

Results

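Integrins and laminins were examined as the receptors and ligands with which an epithelial cell holds on to its basement membrane. The group held 37 of the 20162 protein-coding genes annotated on hg19: 26 integrin genes and 11 laminin chain genes. Members were taken by gene name and no measured value enters the rule, but they were chosen with earlier results of these data known. ChIP-Seq peak lists came from PC-3, an established human prostate cancer line, and each list gives the sites where an antibody enriched DNA over the local background. There were 4 lists, each from 1 library. HoxC5 was precipitated from cells labelled endogenous, with the protein at its own level (replicates 1 and 2), and from cells that overexpress HoxC5. Pbx4 was precipitated from cells that overexpress Pbx4. The overexpressed proteins carried a Flag tag. The same HoxC5 antibody was used in endogenous and overexpressing cells, and Pbx4 was precipitated with an antibody of its own. HoxC5 is a homeodomain transcription factor, and Pbx4 belongs to the family of cofactors that bind DNA together with Hox proteins.

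Integrins are receptors of 1 alpha and 1 beta subunit that span the cell membrane. Some pairs bind laminins or other matrix proteins beneath epithelia, while others are used mainly by blood cells to bind cells and clots. Laminins are assembled from an alpha, a beta and a gamma chain and form the basement membrane sheet to which epithelial integrins attach. The integrins were therefore read as 9 epithelial genes (ITGA2, ITGA3, ITGA6, ITGAV, ITGB1, ITGB4, ITGB5, ITGB6, ITGB8), 10 blood-cell genes (ITGA2B, ITGA4, ITGAD, ITGAE, ITGAL, ITGAM, ITGAX, ITGB2, ITGB3, ITGB7) and 7 others (ITGA1, ITGA5, ITGA7, ITGA8, ITGA9, ITGA10, ITGA11), and the laminins as 5 alpha, 4 beta and 2 gamma chains. ITGB1, ITGA4 and ITGB3 are used by many cell types. The lists hold no expression values, so which of these genes PC-3 cells express was not examined.

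A peak was counted for a gene when its summit, the position of highest enrichment, lay in the gene body or within 50 kb of an annotated transcription start site (TSS). The 37 windows covered 6877 kb once overlaps were merged, with a median of 166 kb a gene against 112 kb over all protein-coding genes. Counts are therefore also given as peaks per kb of window. A distance to the nearest TSS is to the nearest TSS of the gene named, and other genes may start closer. The lists differ greatly in length: 2525 and 170 peaks for endogenous replicates 1 and 2, 67172 for overexpressed HoxC5 and 153557 for Pbx4 on chromosomes 1 to 22, X and Y. Peak height and number were thus compared within a list, not between lists, except where a gene's counts are set side by side. With 1 library for each overexpressed protein there is no replicate check and no p-value. All intervals are 95% and cover counting error only.

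Sequences at 7 sites are printed because results below turn on them. They are read from the plus strand of hg19, 5′ to 3′, and none overlaps an annotated exon. In the first, capitals span the summits of all 4 lists, and the interval is the stretch shared by their 4 peaks. In the others, which are the 101 bases around a summit, capitals mark a short word: the AP-1 word TGACTCA, which is bound by Fos and Jun proteins and reads TGAGTCA on the other strand, or the Hox-Pbx word TGATTAAT, which in LAMA1 runs into the homeodomain word TAATTA.
LAMA4 intron, all 4 lists, chr6:112552889-112553023: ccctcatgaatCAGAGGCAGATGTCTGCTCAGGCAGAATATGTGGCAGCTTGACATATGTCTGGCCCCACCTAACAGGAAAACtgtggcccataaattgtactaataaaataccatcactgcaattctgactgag
ITGA3 upstream, endogenous replicate 1, chr17:48105591-48105691: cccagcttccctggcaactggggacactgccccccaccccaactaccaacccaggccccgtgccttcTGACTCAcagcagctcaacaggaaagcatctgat
LAMA5 intron, endogenous replicate 1, chr20:60934642-60934742: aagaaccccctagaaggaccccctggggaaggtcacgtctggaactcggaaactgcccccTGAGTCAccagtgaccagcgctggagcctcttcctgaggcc
ITGB4 upstream, overexpressed HoxC5, chr17:73679880-73679980: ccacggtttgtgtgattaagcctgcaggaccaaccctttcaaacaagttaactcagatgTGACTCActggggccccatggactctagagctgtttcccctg
LAMB3 downstream, overexpressed HoxC5, chr1:209783291-209783391: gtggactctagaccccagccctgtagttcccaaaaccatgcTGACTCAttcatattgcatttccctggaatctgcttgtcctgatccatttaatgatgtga
LAMC1 downstream, Pbx4, chr1:183132635-183132735: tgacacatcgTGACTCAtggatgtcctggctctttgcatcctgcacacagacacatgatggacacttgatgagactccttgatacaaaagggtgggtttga
LAMA1 intron, Pbx4, chr18:6960808-6960908: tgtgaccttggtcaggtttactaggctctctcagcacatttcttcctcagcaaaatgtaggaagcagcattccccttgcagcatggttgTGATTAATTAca

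Endogenous HoxC5 was found at 12 of the 37 genes (32.4%), where 17.3% of all protein-coding genes had a peak of either replicate. Epithelial integrins held 5 of these genes (ITGA3, ITGB1, ITGB4, ITGB5 and ITGB6) out of 9, and blood-cell integrins 1 (ITGB7) out of 10. Of the other integrins ITGA10 had a peak, and of the laminins LAMA3, LAMA4, LAMA5, LAMB2 and LAMC3. All 18 sites came from replicate 1. Replicate 2 had a single peak in these windows, at LAMA4, which makes 1 gene of 37 (2.70%) against 1.47% of all genes. The pooled density in replicate 1 was 0.00262 peaks per kb, 2.37-fold that of the other protein-coding genes (1.40 to 3.75). Epithelial integrins alone reached 5.36-fold (2.45 to 10.2), with 9 peaks.

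LAMA4, an alpha chain found in the basement membrane of vessels and muscle, held the only site shared by both replicates. Its fold enrichment over the local background was 6.19 in replicate 1 and 7.43 in replicate 2. The same intronic site, 15.0 kb from the nearest TSS and printed above, had a fold enrichment of 11.3 in overexpressed HoxC5 and 18.5 in Pbx4. It was the strongest peak of LAMA4 in both overexpressed lists. None of the words sought lay within 50 bp of its endogenous summit. A further endogenous peak of replicate 1 upstream of LAMA4, of fold 4.35, overlapped no peak of another list.

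ITGA3, the alpha subunit that pairs with ITGB1 into a laminin receptor, had more endogenous sites than any other member, with 4. One lay 27.7 kb upstream (fold 5.04) and carries the AP-1 word in the sequence above. The next lay at −50 bp from the 5′ TSS (fold 4.65). The remaining 2 lay inside the gene, in an intron (fold 3.35) and in an exon part that codes for no protein (fold 5.42). All 4 overlapped a peak of overexpressed HoxC5 and a peak of Pbx4. At the start site itself the overexpressed HoxC5 peak was the strongest of ITGA3, with fold 16.5 and a summit at −167 bp, and it ranked 606 by q of the whole list. The strongest Pbx4 peak of ITGA3 lay elsewhere, 8.23 kb upstream (fold 11.6), with an AP-1 word.

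ITGB4, which pairs with ITGA6 in hemidesmosomes, had 2 endogenous sites, 27.6 kb and 20.7 kb upstream (folds 3.99 and 4.26). Both lie in the body of a neighbouring gene, SAP30BP, and both overlapped peaks of the overexpressed lists. ITGB6, the epithelial partner of ITGAV, had 1 site 5.41 kb upstream (fold 4.87) in no annotated protein-coding gene. ITGB1, the beta subunit shared by most laminin and collagen receptors, had 1 site (fold 3.86) at −84 bp from the TSS of an internal transcript. ITGB5, another partner of ITGAV, had an intronic site (fold 5.13) that overlapped no peak of any other list. Outside the epithelial set, the ITGB7 site lay in the neighbouring CSAD (fold 4.68) and overlapped overexpressed HoxC5 alone, and the ITGA10 site lay in a non-coding exon part near the end of that gene (fold 4.97).

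Among the laminins, LAMA3, the alpha chain of the laminin beneath hemidesmosomes, had its endogenous site 49.1 kb from the nearest TSS, in the body of TTC39C (fold 3.24). That site was also the strongest LAMA3 peak of overexpressed HoxC5 (fold 14.5) and of Pbx4 (fold 20.5). LAMA5, the alpha chain most widespread in epithelial basement membranes, had 2 sites, an intronic one with the AP-1 word printed above (fold 3.51) and one in the neighbouring ADRM1 (fold 4.76). LAMB2 had the endogenous member peak of lowest q, ranking 238 of 2525 in replicate 1 (fold 5.94). It lay 722 bp from the TSS of an internal LAMB2 transcript, but in the body of USP19. The LAMC3 site lay 39.7 kb from the nearest TSS of LAMC3 itself, in the body of no protein-coding gene (fold 4.31). Across the 18 sites, 16 overlapped an overexpressed HoxC5 peak (88.9%, 65.3 to 98.6) and 13 a Pbx4 peak (72.2%, 46.5 to 90.3). Over the whole of replicate 1 these shares were 76.4% and 70.8%, both inside the intervals of the member sites. Only 7 of the 18 lay in the body of a member gene. Within 1 kb of a TSS of some protein-coding gene lay 7 of the 18 (38.9%, 17.3 to 64.3). Among all replicate 1 peaks at protein-coding genes the share was 30.4%. Only ITGA3, ITGB1 and LAMB2 had a site that near to a TSS of their own. The ITGB7 site was near the TSS of another gene, and 11.8 kb from the nearest ITGB7 TSS.

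**Figure D1:**
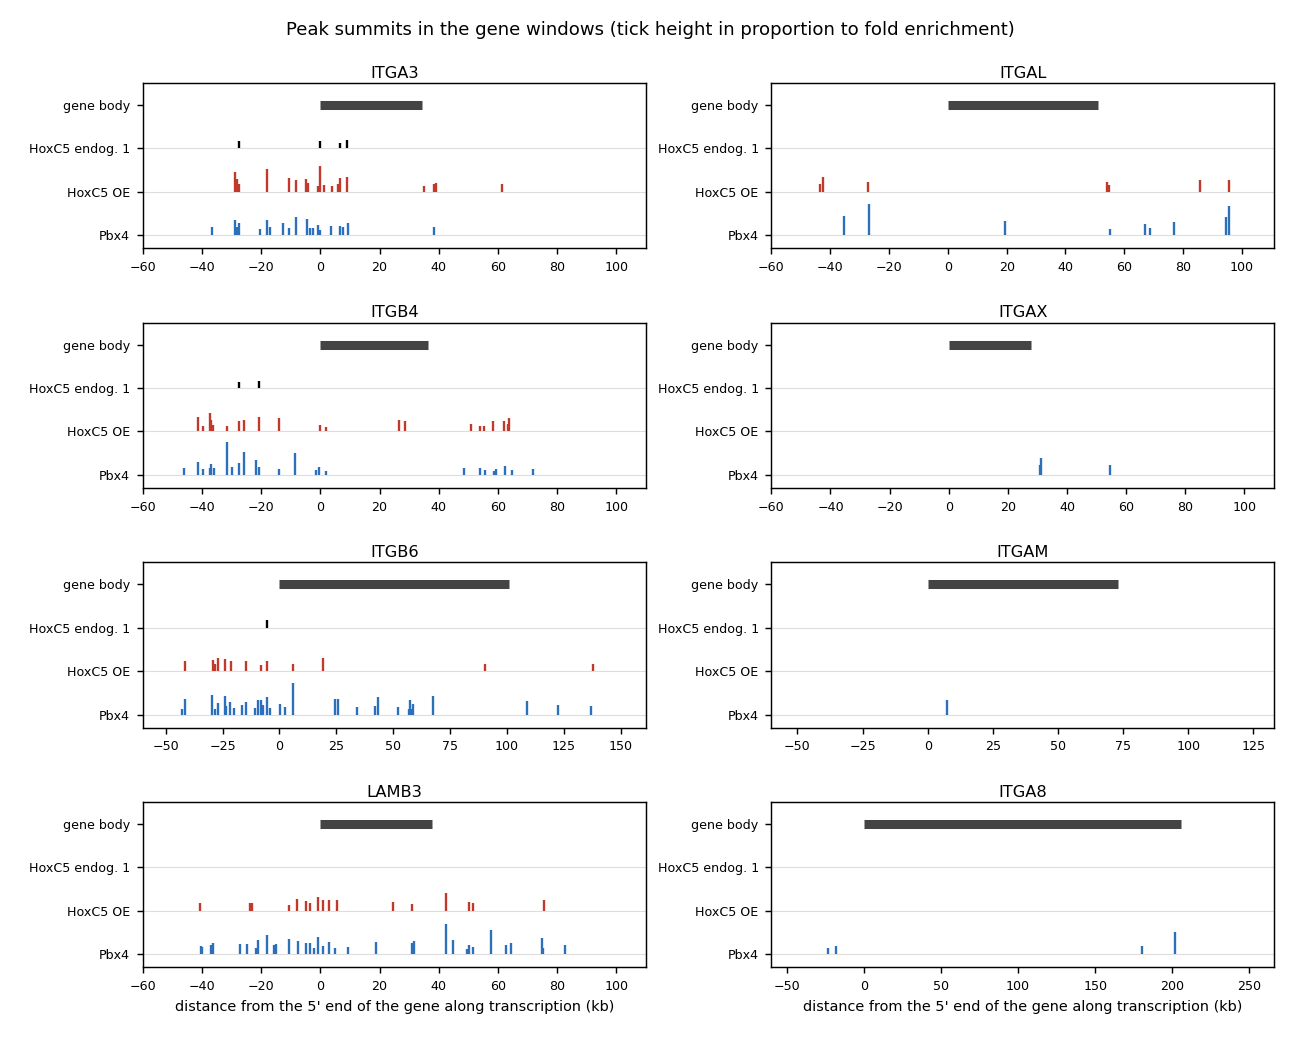
Peak summits of 8 gene windows, by distance in kb from the 5′ end of the gene along the direction of transcription. Rows are Pbx4, overexpressed HoxC5 (HoxC5 OE) and endogenous HoxC5 replicate 1 (HoxC5 endog. 1), tick height is in proportion to fold enrichment and the bar is the gene body. ITGA3, ITGB4, ITGB6 and LAMB3 on the left hold 13 to 21 HoxC5 OE and 20 to 35 Pbx4 summits, against 0 to 7 and 1 to 9 for ITGAL, ITGAX, ITGAM and ITGA8 on the right.

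Overexpressed HoxC5 had peaks at 34 of the 37 genes (91.9%), where 87.8% of all protein-coding genes had one, and Pbx4 at all 37, where 93.0% had one. At these list lengths the presence of a peak says little, and the genes were told apart by density. The median density of the members was 0.0660 overexpressed HoxC5 peaks per kb and 0.103 Pbx4 peaks per kb. Over all protein-coding genes the medians were 0.0314 and 0.0597. In HoxC5, 27 members lay above the all-gene median and 21 above the upper quartile of 0.0562. In Pbx4 these counts were 25 and 19, with an upper quartile of 0.0937. Pooled over merged windows, the members had 364 overexpressed HoxC5 peaks, a density 1.83-fold (1.64 to 2.02) that of the other protein-coding genes, and 652 Pbx4 peaks, 1.51-fold (1.40 to 1.64). Peak strength was near that of the whole lists: the median fold enrichment was 6.27 against 6.17 over the whole HoxC5 list and 6.35 against 6.36 over the Pbx4 list.

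**Figure D2:**
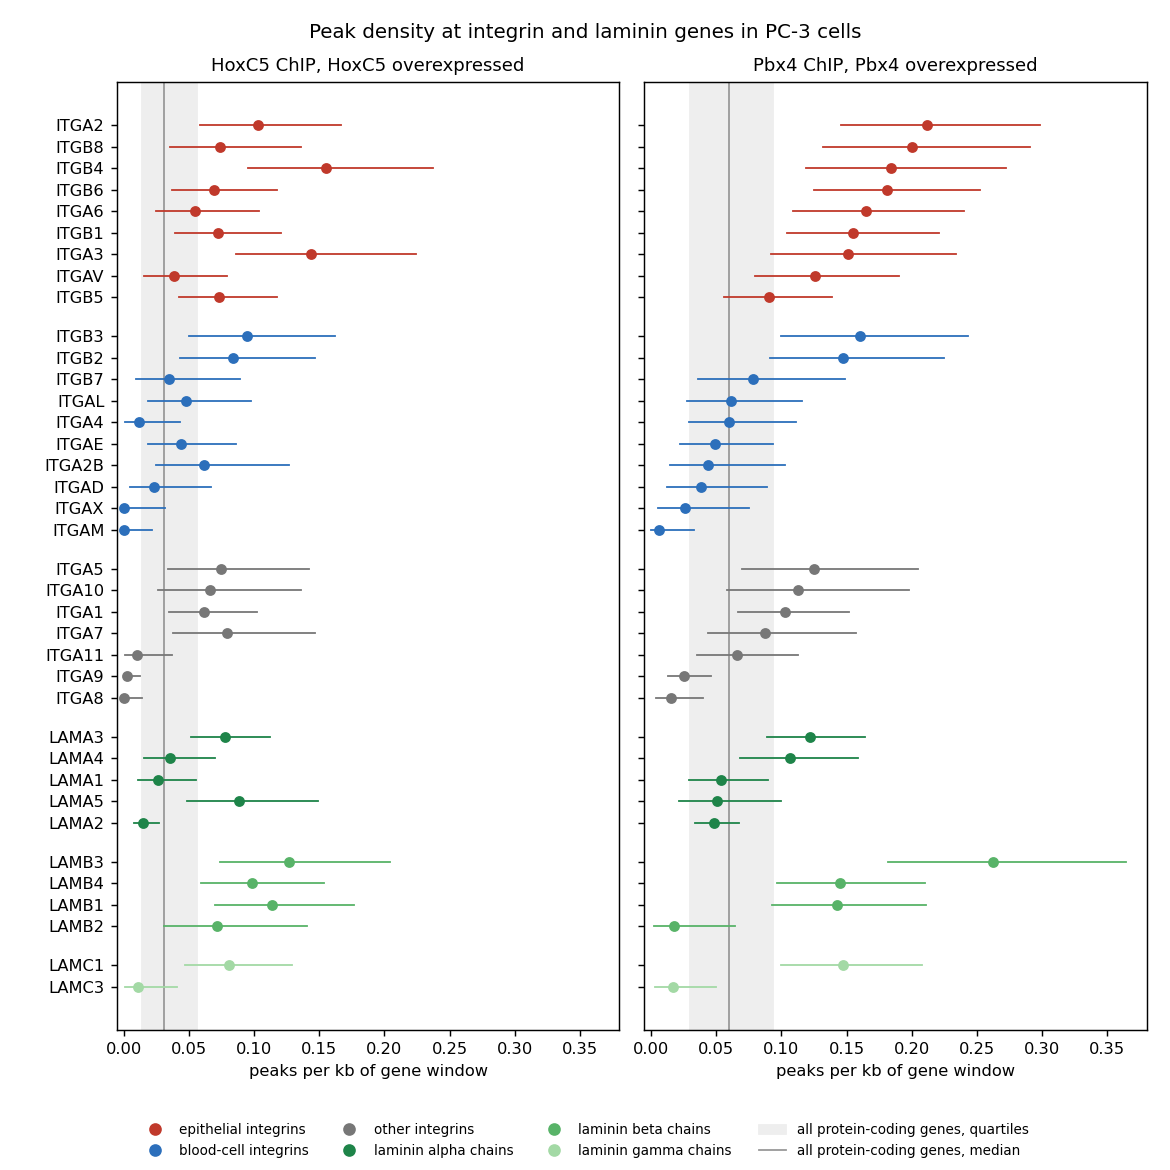
Peaks per kb of gene window for each member gene, with exact Poisson intervals, in overexpressed HoxC5 (left) and overexpressed Pbx4 (right). Grey lines and bands give the median and quartiles of all 20162 protein-coding genes. All 9 epithelial integrins lie above the median in both lists, and LAMB3 has the highest Pbx4 density, 0.262.

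All 9 epithelial integrins lay above the all-gene median in both lists. Their pooled density was 0.0830 peaks per kb in overexpressed HoxC5 and 0.158 in Pbx4. That was 2.86-fold (2.38 to 3.41) and 2.53-fold (2.22 to 2.87) the density of the other protein-coding genes. ITGB4 had the highest HoxC5 density of all members, 0.155 with 21 peaks, above 99.2% of genes, and 0.184 in Pbx4 with 25 peaks. Its strongest HoxC5 peak (fold 11.6), 37.5 kb upstream in SAP30BP, is the ITGB4 site printed above with its AP-1 word, and it overlapped a Pbx4 peak. ITGA3 followed with 0.144 (19 peaks, above 98.8% of genes). Its Pbx4 density was 0.151 (20 peaks).

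ITGA2, the alpha subunit of a collagen and laminin receptor, was the densest integrin in Pbx4, at 0.212 with 33 peaks, above 99.0% of genes. In HoxC5 it had 0.103 with 16 peaks. Its window overlaps that of ITGA1 by 41.8 kb. Of its peaks, 6 of Pbx4 and 1 of HoxC5 were also counted for ITGA1. ITGB8, an ITGAV partner that activates latent TGF-β, had 0.200 in Pbx4 (27 peaks) and 0.0740 in HoxC5 (10 peaks). One of those ITGB8 peaks, 11.6 kb from the nearest TSS inside the gene, was the strongest member peak of overexpressed HoxC5, with fold 24.4 and rank 162 of the list, and the strongest ITGB8 peak of Pbx4 (fold 16.8). ITGB6 had 13 and 34 peaks, ITGA6 9 and 27, ITGB1 14 and 30, and ITGB5 17 and 21. ITGAV, which pairs with several of these beta subunits, had the lowest HoxC5 density of the epithelial set, 0.0385 with 7 peaks, and 23 Pbx4 peaks. Within the set neighbours in this order did not differ beyond their Poisson intervals, while the HoxC5 intervals of ITGAV (0.0155 to 0.0793) and ITGB4 (0.0958 to 0.237) did not overlap.

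Blood-cell integrins had 56 overexpressed HoxC5 and 91 Pbx4 peaks over 1268 kb, or 0.0442 and 0.0717 per kb. The pooled density of epithelial over blood-cell integrins was thus 1.88-fold in HoxC5 (1.36 to 2.63) and 2.20-fold in Pbx4 (1.73 to 2.84). In endogenous replicate 1 it was 7.52-fold, but from 9 peaks against 1, so that the interval ran from 1.04 to 330. Set against the other protein-coding genes, the pooled density of blood-cell integrins was not low: 1.52-fold (1.15 to 1.97) in HoxC5 and 1.14-fold (0.921 to 1.40) in Pbx4. Their median density was above that of all protein-coding genes in HoxC5 (0.0393 against 0.0314) and below it in Pbx4 (0.0547 against 0.0597).

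The blood-cell genes were themselves uneven. ITGB3, the beta subunit of the platelet fibrinogen receptor, had 13 HoxC5 and 22 Pbx4 peaks (0.0947 and 0.160 per kb), and ITGB2, the beta subunit common to leukocyte integrins, had 12 and 21 (0.0840 and 0.147). These densities lay within the range of the epithelial set. The alpha partners of ITGB2 had fewer. ITGAM and ITGAX had no overexpressed HoxC5 peak, and Pbx4 had 1 and 3 (0.00587 and 0.0258 per kb). ITGAD had 3 and 5, and ITGAL 7 and 9, none of its 7 HoxC5 peaks inside the ITGAL body. At 0.0476 and 0.0612 per kb, ITGAL lay above 66.7% and 52.5% of genes. ITGAM, ITGAX and ITGAD lie side by side on chromosome 16, their merged windows held 3 HoxC5 and 6 Pbx4 peaks over 264 kb, and the resulting 0.0114 and 0.0227 per kb were below the lower quartiles of all genes, 0.0140 and 0.0299. The single Pbx4 peak of ITGAM was intronic (fold 9.59) with an AP-1 and a Meis word within 50 bp of its summit, and no HoxC5 peak of any list overlapped it. ITGA2B, the alpha partner of ITGB3, had 7 and 5 peaks, ITGAE 8 and 9, ITGB7 4 and 9, and ITGA4 2 and 10.

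Many peaks counted for blood-cell integrins lay near the start of some gene. Of their 56 HoxC5 peaks 27 (48.2%, 34.7 to 62.0) lay within 1 kb of a TSS of some gene, against 24.6% (17.4 to 33.1) for the epithelial set. Counted in gene bodies alone, the densities were 0.0386 for blood-cell and 0.0785 for epithelial integrins in HoxC5, and 0.0711 and 0.159 in Pbx4. In blood-cell windows, 28 of 56 HoxC5 peaks overlapped a Pbx4 peak (interval 36.3% to 63.7%), and in epithelial windows 93 of 126 (73.8%, 65.2 to 81.2).

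The other integrins divided. ITGA5, the fibronectin receptor subunit, had 9 HoxC5 and 15 Pbx4 peaks, and its strongest site in both lists lay 39.5 kb away, with folds of 19.3 and 21.6 and a Meis word. ITGA1, a collagen receptor subunit, had 15 and 25, ITGA7 10 and 11, and ITGA10 7 and 12. ITGA8 had none in HoxC5 and 4 in Pbx4 over 256 kb (0.0156 per kb), and ITGA9 had 1 and 11 over 428 kb (0.00234 and 0.0257 per kb). ITGA11 had 2 and 13. With these 3 long genes included, the pooled density of the set was 1.03-fold (0.745 to 1.38) that of the other protein-coding genes in HoxC5 and 0.984-fold (0.792 to 1.21) in Pbx4.

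Laminin genes as a whole stood at 1.80-fold (1.51 to 2.13) in overexpressed HoxC5 and 1.42-fold (1.24 to 1.61) in Pbx4. LAMB3, the beta chain of the laminin beneath hemidesmosomes, had the highest Pbx4 density of all members, 0.262 with 35 peaks, above 99.8% of genes, and 0.127 in HoxC5 with 17 peaks. LAMA3, which assembles with it, had the most peaks of any member, 28 and 44, at densities of 0.0777 and 0.122 over a long window. The strongest LAMB3 peak of both lists was the same site downstream, 8.80 kb from the nearest TSS, in the body of CAMK1G, with fold 11.6 in HoxC5 and 19.4 in Pbx4. Its AP-1 word is printed above. LAMC1, the gamma chain of most laminins, had 17 and 31 peaks, and its strongest Pbx4 peak (fold 21.4, 28.9 kb from the nearest TSS) carried the AP-1 word printed above.

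The LAMB1 and LAMB4 windows overlap by 65.8 kb, and 12 of their 20 and 19 HoxC5 peaks were the same ones, as were 13 of their 25 and 28 Pbx4 peaks. LAMB1 reached 0.114 HoxC5 peaks per kb, above 96.9% of genes. The strongest HoxC5 peak of both (fold 20.2, in a LAMB1 intron) had the Hox-Pbx word TGATTGAT within 50 bp. LAMA1 had 7 and 14 peaks. Its strongest Pbx4 peak (fold 16.1), at −164 bp from the TSS of an internal transcript, was the one with TGATTAAT printed above. The overexpressed HoxC5 peak that overlapped it (fold 8.36) had the AP-1 word and no Hox-Pbx word within 50 bp of its own summit. LAMA2, the long muscle chain gene, had 11 and 35 peaks, which over 718 kb gave densities below the medians of all genes, 0.0153 and 0.0487. LAMC3 had 2 and 3 peaks (0.0113 and 0.0170 per kb), the fewest of the laminins in HoxC5.

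HoxC5 peaks outnumbered Pbx4 peaks at 3 members (8.11%), although 15.2% of all protein-coding genes had more of them. LAMB2 had 8 HoxC5 peaks against 2 of Pbx4 (0.0717 and 0.0179 per kb), LAMA5 14 against 8, and ITGA2B 7 against 5. At LAMB2 none of the 8 overlapped a Pbx4 peak, and all 8 lay within 1 kb of a TSS of some gene. At LAMA5, 5 of 14 overlapped Pbx4. The remaining members had more Pbx4 than HoxC5 peaks, in a list that is itself longer. Across the 37 genes the 2 densities had a Spearman rho of 0.751, given as a description, since windows overlap. Whether both counts follow gene surroundings was not tested. Over all protein-coding genes rho was 0.657.

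**Figure D3:**
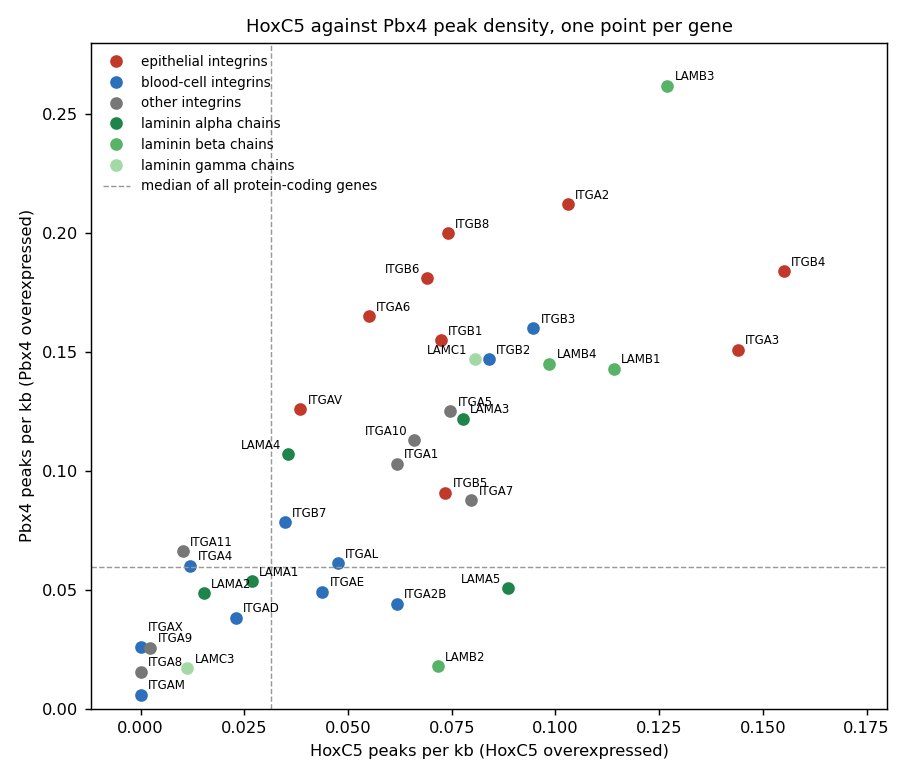
Overexpressed HoxC5 against Pbx4 peak density (peaks per kb of window), 1 point per member gene, coloured by group. Dashed lines are the medians of all protein-coding genes, 0.0314 and 0.0597. LAMB2, LAMA5, ITGA2B and ITGAE lie right of the HoxC5 median but below the Pbx4 median, and LAMB3 has the highest Pbx4 and ITGB4 the highest HoxC5 density.

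At start sites, overexpressed HoxC5 peaks lay within 1 kb of a TSS of 26 members (70.3%), against 54.9% of all protein-coding genes. They did so at 9 of 9 epithelial integrins, 4 of 10 blood-cell integrins (ITGA2B, ITGAE, ITGB2, ITGB3), 3 of 7 others (ITGA1, ITGA5, ITGA7) and 10 of 11 laminins, LAMC3 being the exception. Pbx4 peaks did so at 20 members (54.1%), against 41.9% of all genes: 8 of 9 epithelial integrins (all but ITGA6), 3 of 10 blood-cell integrins, 1 of 7 others and 8 of 11 laminins. Endogenous HoxC5 did so at 3 members (8.11%: ITGA3, ITGB1 and LAMB2), against 3.40%. Genes have several annotated start sites. With the 5′-most TSS alone, an alternative chosen after seeing the data, the share of members came closer to that of all genes: 51.4% against 46.4% in HoxC5 and 35.1% against 27.7% in Pbx4. Laminins fell from 10 to 7 of 11 in HoxC5 and from 8 to 5 in Pbx4. Overexpressed HoxC5 was then at 8 of 9 epithelial integrins (all but ITGB6) and 1 of 10 blood-cell integrins (ITGB3), and Pbx4 at 6 of 9 and 1 of 10 (ITGB2). Of the 3 members with an endogenous site near a TSS, only ITGA3 kept it, at −50 bp. The ITGB1 and LAMB2 sites lay 47383 and 12244 bp from the 5′-most TSS of their gene.

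Of the 364 overexpressed HoxC5 peaks at members, 232 overlapped a Pbx4 peak by at least 1 bp (63.7%, 58.6 to 68.7), an interval that holds both the 67.7% of the whole list and the 65.2% of peaks at protein-coding genes. In the other direction, 224 of 652 Pbx4 peaks overlapped HoxC5 (34.4%, 30.7 to 38.1), above the 28.5% of the whole Pbx4 list and the 29.2% at protein-coding genes. By gene, HoxC5 peaks overlapped Pbx4 at 12 of 14 for ITGB1 and 10 of 11 for LAMA2, but at 0 of 4 for ITGB7 and 0 of 8 for LAMB2.

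Short words around the summits were compared with the whole lists. AP-1 was found within 50 bp, on either strand, of 70 of 364 HoxC5 summits (19.2%, 15.3 to 23.7) and 115 of 652 Pbx4 summits (17.6%, 14.8 to 20.8), with 20.5% and 18.5% over the whole lists. In endogenous replicate 1 it was at 2 of 18, the ITGA3 and LAMA5 sites above. The word of Meis proteins, another family of Hox cofactors (TGACAG), was at 6.32% of HoxC5 and 9.97% of Pbx4 summits, against 7.88% and 10.4%. The words made up of a Pbx and a Hox part were rare: TGATTGAT at 3 HoxC5 (0.824%) and 5 Pbx4 summits (0.767%), against 0.796% and 0.469%, and TGATTAAT at 1 (0.275%) and 5 (0.767%), against 0.807% and 0.691%. TAATTA, the homeodomain word, was at 1.10% (0.300 to 2.79) and 1.38% (0.633 to 2.60), against 2.01% and 1.96%. GTAAACA, the forkhead word, was at 2.47% and 4.45%, against 2015 of the 67172 HoxC5 summits and 3.84% of the Pbx4 summits. For each word and list, the whole-list share lay inside the interval of the member share. These are letter matches, not bound sites.

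Member HoxC5 peaks with a Pbx4 peak held the AP-1 word more often than those without, 58 of 232 (interval 19.6% to 31.1%) against 12 of 132 (9.09%, 4.79 to 15.3). The same held for Pbx4 peaks with HoxC5, 53 of 224 (23.7%, 18.3 to 29.8), against those without, 62 of 428 (14.5%, 11.3 to 18.2). The whole lists gave 26.7% against 7.51% and 24.4% against 16.1%, so this was not particular to integrin and laminin genes. ITGB5 and LAMA3 had the most AP-1 words among HoxC5 peaks, with 6 each of 17 and 28, while none was found at the 10 ITGB8 peaks.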

How the data were processed

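ChIP-Seq was done on 4 ChIP libraries of PC-3 cells. The 4 input libraries were not used here. Per the study's methods, the authors used BWA-MEM to align reads to hg19 and left out reads of low mapping quality. SAMtools was used to take out duplicates and MACS2 to call peaks, and there is 1 deposited list for each ChIP library. The MACS2 version, its controls and any filter of problematic regions are not given in the sources used here. For each peak the deposited lists give how far the signal exceeds the local background, as a ratio (fold enrichment). They also give the significance as −log10 of p and of q, and the authors' score, which is a multiple of −log10 q cut to a whole number. The largest q was 0.00997 in the overexpressed HoxC5 list and 0.0398 to 0.0499 in the other lists, although the methods state a single, looser limit for all peaks. Why that list stops earlier is not given in the sources used here. The methods give the average depth of the libraries as a range, and read totals are not part of these lists, so the depth of a single library, with the precision it gives, is unknown.

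Peaks on chromosomes 1 to 22, X and Y were placed on GENCODE 44 lifted to GRCh37, with all annotated TSSs, by Python 3.11.15 with numpy 2.4.6 and scipy 1.17.1. The annotation the authors used is not given in the sources used here. Intervals of densities are exact Poisson, of shares exact Clopper-Pearson, and of density ratios exact conditional binomial. The density ratio and its interval were tested on simulated peaks placed independently and evenly. That check does not cover clustering of peaks, which the intervals leave out. Windows of a gene group were merged, so that a peak shared by neighbours counted once within that group. No test across samples was possible. Members, gene sets and words were chosen with earlier results of these data known. The rule for full values named every member with an endogenous peak and the 4 highest and 4 lowest by density in each overexpressed list. The other members are given by their counts, and further values were chosen after they were seen. Alternatives were other flanks, gene bodies alone, stricter fold and q limits, other overlap rules and word windows, lists cut to equal length, and each endogenous replicate left out.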

Additional observations from a re-analysis of the deposited data

How the results depend on the processing

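All 28 density ratios recomputed under alternatives stayed above 1. Epithelial over blood-cell integrins ranged from 1.55 to 2.44 in overexpressed HoxC5 and from 2.11 to 2.77 in Pbx4, and members over the other genes from 1.63 (gene bodies alone) to 1.83 and from 1.44 to 1.54. Of 67 alternatives 51 left the value within its interval, or the count within 1.5 times, and 16 moved it. Members with an endogenous peak fell from 12 to 4 at a fold of at least 5 and to 6 in gene bodies alone, and leaving out a replicate gave 1 (without replicate 1) to 12 (without replicate 2). HoxC5 peaks overlapping Pbx4 fell from 63.7% to 47.3% with the Pbx4 list cut to the length of the HoxC5 list, 38.5% at 50% of both peaks and 50.5% with summits within 100 bp. Pbx4 peaks overlapping HoxC5 became 57.1%, 21.5% and 28.2%. AP-1 shares were 11.8% (HoxC5) and 8.44% (Pbx4) within 25 bp, and 26.4% and 27.3% within 100 bp. With the 5′-most TSS alone, blood-cell integrins with a peak near it fell from 4 to 1 in HoxC5 and from 3 to 1 in Pbx4. Narrower windows and shorter lists hold fewer peaks by construction. No paired analysis was possible because no result comes from a test across replicates. Endogenous results rest on replicate 1, and the depth of each single library is unknown.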

Other observations

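Genes that work beside the members were counted in the same windows. The 16 genes of integrin adaptors and hemidesmosome partners (such as the talins TLN1 and TLN2, the kindlins FERMT1 to FERMT3, ILK, DST and COL17A1), most of whose products tie integrin tails to the cytoskeleton, had 216 overexpressed HoxC5 and 358 Pbx4 peaks, 2.27-fold (1.98 to 2.59) and 1.74-fold (1.57 to 1.93) the density of the other protein-coding genes. An endogenous replicate 1 peak was present at 10 of the 16, where 17.1% of all protein-coding genes had one, a density of 2.75-fold (1.32 to 5.07). The 11 other basement membrane genes (type IV collagens, the nidogens NID1 and NID2, HSPG2, AGRN and the receptor gene DAG1) had 88 and 175 peaks, 1.34-fold (1.07 to 1.65) and 1.23-fold (1.06 to 1.43), with a replicate 1 peak at 4 of them against the same 17.1% (1.99-fold, 0.646 to 4.66). These values cover counting error only and were not tested against the members.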
